A study of Rattus norvegicus with 40 samples.

Results

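The miR-106b, miR-93 and miR-25 cluster is a set of 3 neighbouring microRNA (miRNA) genes. Its members here were the rows of the count matrix named miR-106b, miR-93 or miR-25, whichever arm of the hairpin they come from. This rule found 6 of the 752 miRNAs in the matrix, of which 581 had a read in any library. The 6 members were rno-miR-106b-5p, rno-miR-106b-3p, rno-miR-93-5p, rno-miR-93-3p, rno-miR-25-3p and rno-miR-25-5p (the species prefix is left out from here on), and all of them were detected. Small RNA was sequenced from plasma that 20 adult male Sprague-Dawley rats gave at D2 and at D9 after lateral fluid-percussion injury or sham operation, in 40 libraries. Lateral fluid-percussion injury is a brief pressure pulse onto the exposed dura, set here to give a severe traumatic brain injury (TBI). The 4 sham-operated rats had anaesthesia and craniotomy without the pulse, so they shared the surgery with the 16 TBI rats. Of the TBI rats, 7 had epilepsy in video-EEG recordings months later (TBI+) and 9 did not (TBI−). Each rat gave 1 library per day.

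A miRNA gene is transcribed as a hairpin, and Dicer cuts from it a duplex whose arms are called 5p and 3p. Usually one arm is loaded into an Argonaute protein and the other is degraded. The loaded miRNA finds its target messages mainly through its seed, bases 2 to 8, so miRNAs with the same seed form a family with overlapping targets. The miR-106b-25 cluster is a paralogue of the miR-17-92 cluster, which is best known as an oncogenic miRNA locus. Its host gene, Mcm7, encodes a subunit of the helicase that unwinds DNA at replication origins and is expressed in dividing cells. Known targets of the miR-17 seed family include the cell cycle inhibitor p21. In plasma, miRNAs are carried in vesicles and protein complexes released from blood cells and tissues, so a lower level from fewer releasing cells and from less RNA per cell cannot be told apart.

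RefSeq places the 3 genes (assembly GRCr8) on the minus strand of chromosome 12 inside Mcm7, which is read from the same strand, in the order miR-106b, miR-93, miR-25. The reads were counted on another build (Rno6), and the GRCr8 positions below only place the sequences. The arms of each hairpin were counted separately, but the hairpin of Mir106b was not in the RefSeq sequences used here. The hairpins RefSeq gives for Mir93 (chr12:22156844-22156930) and Mir25 (chr12:22156641-22156724) are shown, with the 5p and 3p miRNAs in capitals.
Mir93: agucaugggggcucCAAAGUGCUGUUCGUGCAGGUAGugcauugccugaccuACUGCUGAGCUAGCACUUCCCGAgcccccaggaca
Mir25: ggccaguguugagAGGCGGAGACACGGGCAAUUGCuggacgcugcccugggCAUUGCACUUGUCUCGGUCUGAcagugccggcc

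The mature sequences decide which miRNAs share a seed with the members, and the seed (bases 2 to 8) is in capitals. RefSeq held a mature sequence for all 6 members and for 685 of the 752 miRNAs in the matrix. The members and the miR-17-92 relatives closest to them read as follows.
miR-106b-5p: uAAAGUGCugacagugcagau
miR-93-5p: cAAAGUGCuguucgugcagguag
miR-17-5p: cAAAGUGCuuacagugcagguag
miR-20a-5p: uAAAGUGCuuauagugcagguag
miR-25-3p: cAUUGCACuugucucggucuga
miR-92a-3p: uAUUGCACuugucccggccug
miR-106b-3p: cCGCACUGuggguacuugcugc
miR-93-3p: aCUGCUGAgcuagcacuucccga
miR-25-5p: aGGCGGAGacacgggcaauugc

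The seed AAAGUGC was shared by 5 miRNAs of the matrix, miR-106b-5p, miR-93-5p, miR-17-5p, miR-20a-5p and miR-20b-5p. The seed AUUGCAC was also shared by 5, miR-25-3p, miR-32-5p, miR-92a-3p, miR-92b-3p and miR-363-3p. The seeds of miR-106b-3p, miR-93-3p and miR-25-5p occurred in no other mature sequence that was matched. As whole sequences the members were separable from their relatives: miR-93-5p was 3 edits from miR-17-5p, miR-106b-5p was 5 edits from it, and miR-25-3p was 4 edits from miR-92a-3p. How the counting assigned reads that map to several places is not given in the sources used here.

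Values are counts scaled to a library total of 1000000 miRNA reads (CPM), and they rank one miRNA against another only within the limits of adapter ligation bias. D2 libraries held 404542 to 2562083 reads. On D9 the TBI libraries held 332161 to 2864893 reads, but the sham libraries only 140636 to 358202, where 3 reads already stand for 8.38 to 21.3 CPM. Library numbers in the sample titles fell into 3 runs whose meaning is not stated. Sham and TBI+ rats 1 to 4 shared a run on each day (run 1 on D2, run 3 on D9), while no TBI− library was in the run of the sham libraries on either day, so TBI− against sham cannot be told apart from the run. On D9, miR-22-3p was at 265444 and 264269 CPM in sham rats 1 and 3, and on D2 it was highest in TBI− rat 2 at 279416 CPM. Its part in the members' levels was not tested. The D9 library of sham rat 2 stood apart in miR-24-3p, at 53601 CPM. Of the blood cell lists, the red blood cell miRNAs miR-451-5p and miR-16-5p had reads in every group, and the liver miRNA miR-122-5p had 0 reads in all libraries. A count of 0 does not show absence from plasma. The neuronal miR-9a-3p also had 0 reads, while the authors detected it by quantitative PCR in plasma of the same rats.

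All 6 members were present in plasma, at levels that spanned more than 2 orders of magnitude. miR-25-3p was the most abundant, with a mean of 6802 CPM over the 40 libraries and rank 29 of 752. miR-93-5p followed at 1980 CPM (rank 53), miR-106b-5p at 318 CPM (rank 98) and miR-106b-3p at 266 CPM (rank 107). The rarest were miR-93-3p at 34.0 CPM (rank 192) and miR-25-5p at 20.5 CPM (rank 214), which had a read in 39 libraries. The order miR-25-3p, miR-93-5p, miR-106b-5p held in 40 of 40 libraries. Together the members took 0.942% ± 0.410 of the miRNA reads (SD, 40 libraries), and miR-25-3p alone was 71.5% ± 4.97 of the cluster's reads.

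The hairpins differed in how their arms were represented. miR-93-5p made up 97.9% ± 1.65 of the reads of both miR-93 arms and miR-25-3p 99.7% ± 0.547 of those of both miR-25 arms, and these arms led in 40 of 40 libraries. For miR-106b the arms were nearly balanced: the 5p arm took 54.1% ± 11.1, from 21.3% to 68.0%. Its 3p arm had more reads than its 5p arm in 9 libraries, among them those of sham rats 1 and 3 on D9. There miR-106b-5p had 15 and 20 reads against 43 and 74 of miR-106b-3p, so the balance in these libraries rests on few reads.

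Within their seed families the members held opposite positions. miR-93-5p was the main carrier of the AAAGUGC seed in plasma, with 65.8% ± 7.72 of the family's reads (SD, 40 libraries), and miR-106b-5p added 11.2% ± 2.95. miR-17-5p, of the miR-17-92 cluster, held 14.3% ± 3.72, miR-20a-5p 8.26% ± 7.36 and miR-20b-5p 0.440% ± 0.206. In the other family miR-25-3p held only 5.70% ± 1.99, since miR-92a-3p took 92.4% ± 2.02. miR-92b-3p held 1.74% ± 0.536, and miR-363-3p and miR-32-5p held 0.154% and 0.0176%.

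**Figure D1:**
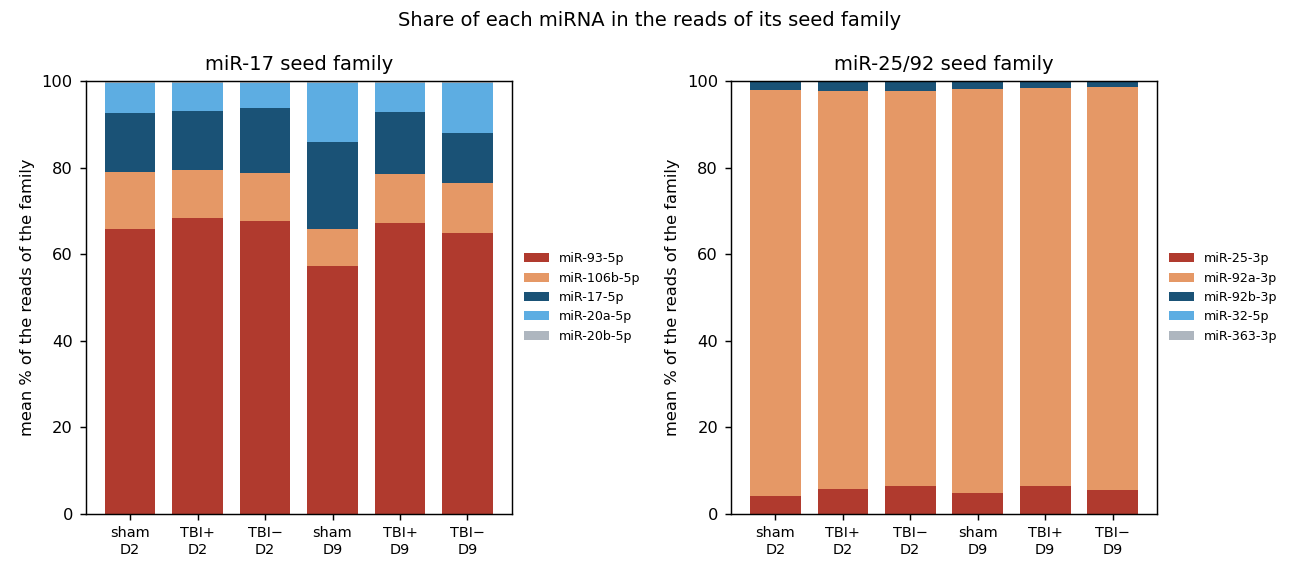
Mean share (percent of reads) of each miRNA in the reads of its seed family, by group and day, with 4 sham, 7 TBI+ and 9 TBI− rats per day. miR-93-5p was the largest part of the miR-17 seed family in each group (57.1% to 68.4%), and miR-25-3p a small part of the miR-25/92 family (4.12% to 6.50%).

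The family share was lowest in the sham libraries of D9. There miR-106b-5p and miR-93-5p together made up 65.8% ± 10.7 of the miR-17 seed family (n = 4), against 77.3% ± 8.52 in TBI rats (n = 16). On D2 the shares were 78.9% ± 3.57 and 79.0% ± 3.00. These shares were not tested, and the ranges on D9 overlapped (56.1% to 81.0% in sham, 50.4% to 85.9% in TBI).

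The comparison of TBI with sham on D2 asked whether injury changed plasma miRNAs in the acute phase, and the cluster did not pass the test there. miR-25-3p, the abundant member, was at 6973, 4611, 5805 and 5423 CPM in sham rats 1 to 4. In the 16 TBI rats it ran from 3240 CPM over a median of 6609 to 10357 CPM. The sham values lay inside the TBI range (log2 fold change, log2FC, 0.36 ± 0.23 SE, adjusted p = 0.418, edgeR). miR-93-5p was at 2085, 1352, 1486 and 1571 CPM in sham rats and at 599 to 2847 CPM, median 1626, in TBI rats. The groups overlapped again (log2FC 0.18, adjusted p = 0.742, edgeR).

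miR-106b-5p was at 439, 277, 258 and 315 CPM in sham rats on D2, and at 128.5 to 400 CPM with a median of 262 in TBI rats. The highest value was that of a sham rat, and the log2FC was -0.17 (adjusted p = 0.710, edgeR). Its partner arm miR-106b-3p was at 207, 183, 132.5 and 202 CPM in sham and at 124 to 342 CPM, median 197, in TBI rats. Here the highest values were in TBI rats (log2FC 0.34, adjusted p = 0.450, edgeR). For the minor arms, miR-93-3p had a log2FC of -0.12 (adjusted p = 0.860) and miR-25-5p of -0.72 (adjusted p = 0.286, edgeR).

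In all, edgeR called 0 of 6 members in TBI against sham on D2, where it called 6.19% of all 565 miRNAs tested. At an unadjusted p under 0.05 the count was also 0, and DESeq2 called 0, with 7.96% of all miRNAs. No member separated the groups without overlap. Over all miRNAs 2.12% did, so few that 0 of 6 says little about the members. The members' median log2FC was 0.03, against 0.09 over all miRNAs.

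On D9 the 3 major arms were higher on average in TBI than in sham rats, but the sham libraries were spread widely. miR-25-3p was at 2574, 5533, 2252 and 9559 CPM in sham rats 1 to 4, and at 1388 to 16268 CPM with a median of 7410 in TBI rats. Sham rats 1 and 3 were low and sham rat 4 was above the TBI median (log2FC 0.75 ± 0.46 SE, adjusted p = 0.465, edgeR). The value was 1.29 without sham rat 4 and 0.50 without sham rat 3, and not called in either fit (adjusted p = 0.146 and 0.823, edgeR). miR-93-5p had the same order, with 1180, 2017, 678 and 2608 CPM in sham and 529 to 4472 CPM, median 2424, in TBI rats. The lowest values of all belonged to TBI− rats 4 and 2 at 529 and 590 CPM (log2FC 0.73 ± 0.42 SE, adjusted p = 0.440, edgeR), with a log2FC of 0.46 without sham rat 3 and 1.06 without sham rat 4.

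miR-106b-5p split the sham group most clearly on D9, with 107 and 99.0 CPM in sham rats 1 and 3 and 432 and 410 CPM in sham rats 2 and 4. TBI rats ran from 162.6 to 643 CPM with a median of 418. Sham rats 1 and 3 thus lay below all TBI rats, while the other two lay near the TBI median (log2FC 0.68 ± 0.38 SE, adjusted p = 0.418, edgeR), and the log2FC ran from 0.39 without sham rat 3 to 1.00 without sham rat 4. miR-106b-3p did not show this split, with 306, 296, 366 and 229 CPM in sham and 222 to 620 CPM in TBI rats (log2FC 0.30, adjusted p = 0.742, edgeR). miR-93-3p was at 22.3 to 55.5 CPM in sham and 14.7 to 62.6 CPM in TBI rats (log2FC -0.11, adjusted p = 0.901, edgeR).

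**Figure D2:**
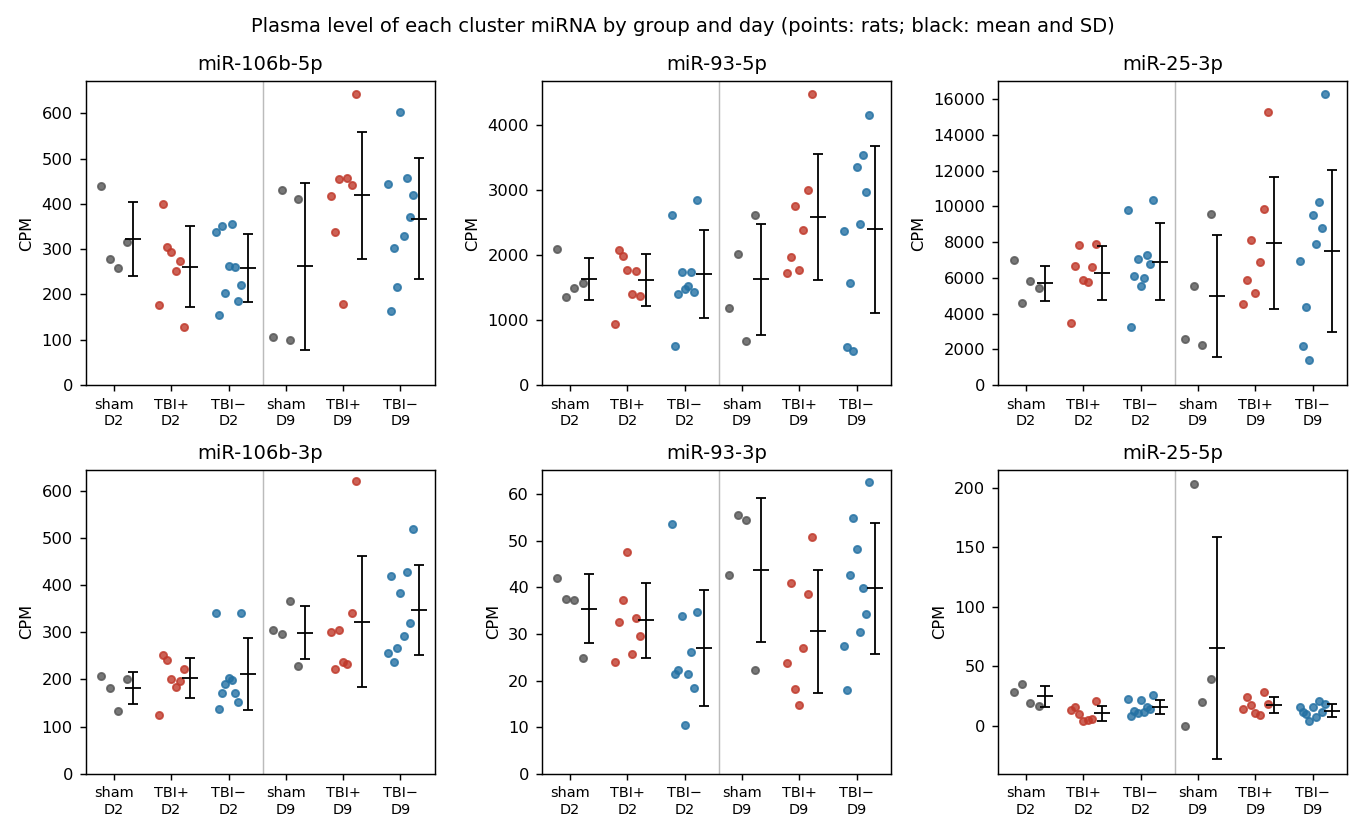
CPM of the 6 members in each rat, by group and day, where points are rats and the black mark and bar are the mean and SD of the group (4 sham, 7 TBI+ and 9 TBI− rats). Groups of the same day overlap in every panel, and a single sham rat at 204 CPM sets the D9 mean of miR-25-5p.

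miR-25-5p was the only member called between sham and TBI. On D9 it was at 0, 204, 19.8 and 39.1 CPM in sham rats 1 to 4, and at 4.07 to 28.9 CPM with a median of 15.3 in TBI rats. The log2FC was -1.94 ± 0.51 SE (adjusted p = 0.0229, edgeR), and for TBI− against sham -2.18 ± 0.55 (adjusted p = 0.0152, edgeR). TBI+ against sham gave -1.68 ± 0.57 and missed the threshold (adjusted p = 0.119, edgeR). The sham counts behind these values were 0, 33, 4 and 14 reads. Without sham rat 2 the log2FC was -0.53 (adjusted p = 0.809) and for TBI− against sham -0.77 (adjusted p = 0.716, edgeR), so the call rests on 33 reads in 1 library, the one that stood apart in miR-24-3p.

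Seen against the whole matrix, 1 of 6 members was called in TBI against sham on D9, where 3.51% of all 541 miRNAs were called and 2.4% as lower (DESeq2 also called 1, with 3.14% of all). In TBI− against sham it was 1 of 6, where 4.81% were called and 3.51% as lower (DESeq2 1, with 4.07% of all). edgeR called 0 of 6 in TBI+ against sham on D9, where 1.85% were called, with 1 member at an unadjusted p under 0.05 and 1 called by DESeq2, which called 2.03% of all. On D2 edgeR called 0 of 6 in TBI+ against sham and 0 of 6 in TBI− against sham, where 3.19% and 6.19% of all miRNAs were called. DESeq2 called 0 in both, with 6.02% and 6.55% of all, and the counts at an unadjusted p under 0.05 were 1 and 0. No member separated TBI from sham without overlap on D9. Over all miRNAs 0.555% did, a share at which 0 of 6 says little about the members.

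On D2 miR-25-5p was again lower on average after injury, at 28.6, 35.2, 19.4 and 16.5 CPM in sham rats 1 to 4. TBI+ rats were at 3.97 to 20.7 CPM, median 10.4, and TBI− rats at 8.06 to 25.7 CPM, median 14.6. In TBI+ against sham the log2FC was -1.14 ± 0.40 SE, which did not pass the threshold (adjusted p = 0.123, edgeR). In TBI+ against TBI− it was -0.69 (adjusted p = 0.694, edgeR). With a median of 13 reads in the TBI+ libraries, the counts were small.

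TBI+ and TBI− rats did not differ detectably in any member on either day. edgeR called 0 of 6 members on D2 and 0 of 6 on D9, and it called 0.0% of all miRNAs on both days. DESeq2 called 0 on both days, and at an unadjusted p under 0.05 there was 1 member on D2 (miR-25-5p) and 0 on D9. The D2 means of miR-25-3p were 6285 ± 1500 CPM in TBI+ and 6902 ± 2162 CPM in TBI− rats (SD, n = 7 and 9). On D9 they were 7960 ± 3707 and 7504 ± 4553 CPM. For miR-93-5p the D9 means were 2580 ± 965 and 2392 ± 1278 CPM, and for miR-106b-5p 419 ± 140 and 367 ± 133.3 CPM. Each pair of means differed by less than the SD of either group.

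When the 6 combinations of group and day were ordered by mean CPM, neighbouring groups overlapped in their ranges for each of the 6 members. miR-106b-3p had the only step larger than the SDs of its neighbours, between TBI− on D2 (212 ± 76.7 CPM) and sham on D9 (299 ± 56.2 CPM), since all 3 of its D9 means lay above all 3 of its D2 means. miR-106b-5p, miR-93-5p and miR-25-3p had their highest means in TBI+ rats on D9. miR-25-5p and miR-93-3p had theirs in sham rats on D9.

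Between D2 and D9 the members called were the arms of miR-106b. miR-106b-3p increased in 4 of 4 sham, 6 of 7 TBI+ and 8 of 9 TBI− rats. In sham rats 1 to 4 it went from 207, 183, 132.5 and 202 CPM to 306, 296, 366 and 229 CPM. In TBI+ rats it went from 124 to 252 CPM (median 200.5) to 222 to 620 CPM (median 299.7), and in TBI− rats from 137 to 342 CPM (median 191) to 236 to 518 CPM (median 320.1). The ranges of the days overlapped within TBI+ and within TBI− rats, but not within the 4 sham rats.

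In the fit over all 40 libraries the D9 over D2 log2FC of miR-106b-3p was 0.78 ± 0.25 SE in TBI+ (adjusted p = 0.0239, edgeR), and 0.68 ± 0.22 in TBI− rats (adjusted p = 0.0204, edgeR). In sham rats it was 0.75 ± 0.34, of the same size but short of the threshold with 4 rats (adjusted p = 0.223, edgeR). DESeq2 called the sham rise (log2FC 0.99, adjusted p = 0.0332). With the rat as a block the TBI− call held (adjusted p = 0.0401), whereas TBI+ gave 0.69 (adjusted p = 0.105, edgeR). The changes in TBI and sham rats differed by -0.01 ± 0.37 SE (adjusted p = 1.00, edgeR).

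The TBI− call was lost when TBI− rat 2, 3, 6, 7 or 8 or TBI+ rat 5 was left out (log2FC 0.48 to 0.66). The TBI+ call was lost without TBI+ rat 1, 3, 5, 6 or 7 or TBI− rat 1 or 2, with a log2FC from 0.56 to 0.83. In each of the 20 fits without 1 rat the direction was upward. Only TBI− rats 5 and 6 had both libraries in the same run, and there miR-106b-3p rose from 203 to 384 CPM and from 198 to 292 CPM. Among sham and TBI+ rats 1 to 4, which all went from run 1 to run 3, the TBI+ log2FC was 0.50 (adjusted p = 0.442, edgeR).

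miR-106b-5p rose in TBI+ rats, from 128.5 to 400 CPM (median 274) on D2 to 180 to 643 CPM (median 441) on D9. It was higher on D9 in 5 of 7 rats (log2FC 0.80 ± 0.28 SE, adjusted p = 0.0414, edgeR). With the rat as a block the call was lost (log2FC 0.75, adjusted p = 0.0791, edgeR), as it was in 13 of the 20 fits without 1 rat, namely without sham rat 1, TBI+ rat 1, 3, 5, 6 or 7, or TBI− rat 1, 2, 3, 4, 6, 7 or 8. Without TBI+ rat 7, the rat with the largest rise, the log2FC was 0.54 (adjusted p = 0.235, edgeR). In TBI− rats the level was higher in 7 of 9 (log2FC 0.47, adjusted p = 0.179, edgeR). Sham rats moved both ways, with 2 of 4 higher.

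miR-93-5p and miR-25-3p did not pass the test between the days. miR-93-5p was higher on D9 in 6 of 7 TBI+ rats (log2FC 0.79 ± 0.32 SE, adjusted p = 0.0770) and 6 of 9 TBI− rats (log2FC 0.46, adjusted p = 0.253, edgeR). miR-25-3p was higher in 5 of 7 TBI+ rats (log2FC 0.44, adjusted p = 0.367) and in 5 of 9 TBI− rats (log2FC 0.09, adjusted p = 0.893, edgeR). In TBI− rats the D9 range of miR-25-3p was 1388 to 16268 CPM, with TBI− rats 4 and 2 lowest and TBI− rat 9 highest.

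**Figure D3:**
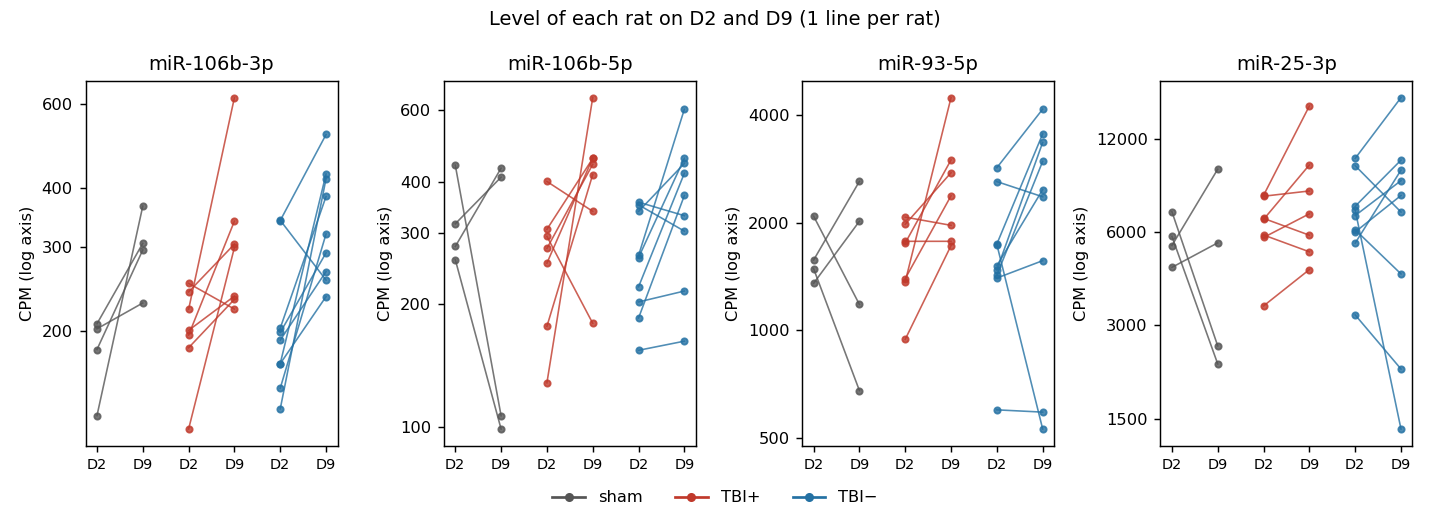
CPM on D2 and D9 of each rat on a log axis, 1 line per rat, for miR-106b-3p, miR-106b-5p, miR-93-5p and miR-25-3p. miR-106b-3p rose in 18 of 20 rats, while the other 3 miRNAs rose in some rats and fell in others of each group.

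The minor arms did not pass between the days either. miR-25-5p was higher on D9 in 6 of 7 TBI+ rats (log2FC 0.81 ± 0.43 SE, adjusted p = 0.184, edgeR), but in only 2 of 9 TBI− rats (log2FC -0.34 ± 0.37, adjusted p = 0.576, edgeR), and in 3 of 4 sham rats. The difference in change between TBI+ and TBI− rats was 1.15 ± 0.57 and did not pass (adjusted p = 0.621, edgeR), and it was 0.36 with all libraries thinned to the depth of the smallest. miR-93-3p was higher in 4 of 7 TBI+ (log2FC 0.04, adjusted p = 0.986, edgeR) and 7 of 9 TBI− rats (log2FC 0.54, adjusted p = 0.161, edgeR).

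By background, edgeR called 2 of 6 members between the days in TBI+ rats, both higher on D9, where it called 16.0% of all 581 miRNAs and 4.82% as higher. In TBI− rats it called 1 of 6 as higher, where 20.1% of all miRNAs were called and 7.23% as higher. In sham rats it called 0 of 6, where 5.68% were called, with 2 members at an unadjusted p under 0.05 and 2 called by DESeq2, which called 8.26% of all. The test of whether the change differed between TBI and sham rats called 0 of 6 members by edgeR and by DESeq2, where edgeR called 3.27% and DESeq2 4.65% of all. The value nearest to a difference was miR-106b-5p (0.95 ± 0.42 SE, adjusted p = 0.231, edgeR), for which sham rats 1 and 3 fell and the TBI rats rose on average. For miR-93-5p and miR-25-3p the difference was 0.65 (adjusted p = 0.563) and 0.49 (adjusted p = 0.789, edgeR). For the change in TBI+ against TBI− rats both tools called 0 of 6 members, with 1 member at an unadjusted p under 0.05, and edgeR called 0.0% and DESeq2 0.172% of all miRNAs there.

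Ratios between members within a library do not depend on scaling to the library total. The ratio of miR-25-3p to miR-93-5p fell from D2 to D9. In TBI+ rats it went from 3.20 to 5.76 reads of miR-25-3p per read of miR-93-5p (median 3.75) to 2.63 to 3.42 (median 2.95), and in TBI− rats from 3.64 to 5.41 (median 4.06) to 2.62 to 3.92 (median 2.95). Sham rats 1 to 4 went from 3.34, 3.41, 3.90 and 3.45 to 2.18, 2.74, 3.31 and 3.66. The ratio thus fell in 7 of 7 TBI+, 8 of 9 TBI− and 3 of 4 sham rats, the exceptions being TBI− rat 9 and sham rat 4.

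In the 16 TBI rats the mean change of this ratio was -0.42 ± 0.23 on the log2 scale (SD), and a 2-sided exact sign-flip permutation test gave p = 9.2e-05, or 0.00055 adjusted over 6 ratios. The test was added after the values had been seen. Sham rats changed by -0.27 ± 0.29 (exact permutation p = 0.25, where 4 rats allow no p below 0.125). The 2 TBI− rats with both libraries in the same run changed by -0.31 and -0.40. The mean was -0.30 in the 4 TBI rats that went from run 1 to run 3, -0.52 in the 7 from run 2 to run 1 and -0.60 in the 2 from run 3 to run 2, while the 1 rat from run 3 to run 1 rose by 0.11. The part of the runs in this change was not tested.

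A second ratio also passed, that of miR-25-3p to miR-106b-5p, which changed by -0.51 ± 0.71 on the log2 scale and was lower on D9 in 13 of 16 TBI rats (exact permutation p = 0.0055, adjusted p = 0.0165). It was less even across runs, with a mean of -0.90 in the 7 rats from run 2 to run 1, of -0.19 in the 4 from run 1 to run 3, and of 0.05 in the 2 rats of a single run. In sham rats it changed the other way on average, by 0.15 ± 0.43, and was lower in 2 of 4 (exact permutation p = 0.5). The ratio of miR-93-5p to miR-106b-5p changed by -0.10 ± 0.60 and fell in 9 of 16 rats (exact permutation p = 0.572, adjusted p = 0.605). The ratios of the arms of each hairpin did not pass either, with adjusted p = 0.605 for each of the 3.

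**Figure D4:**
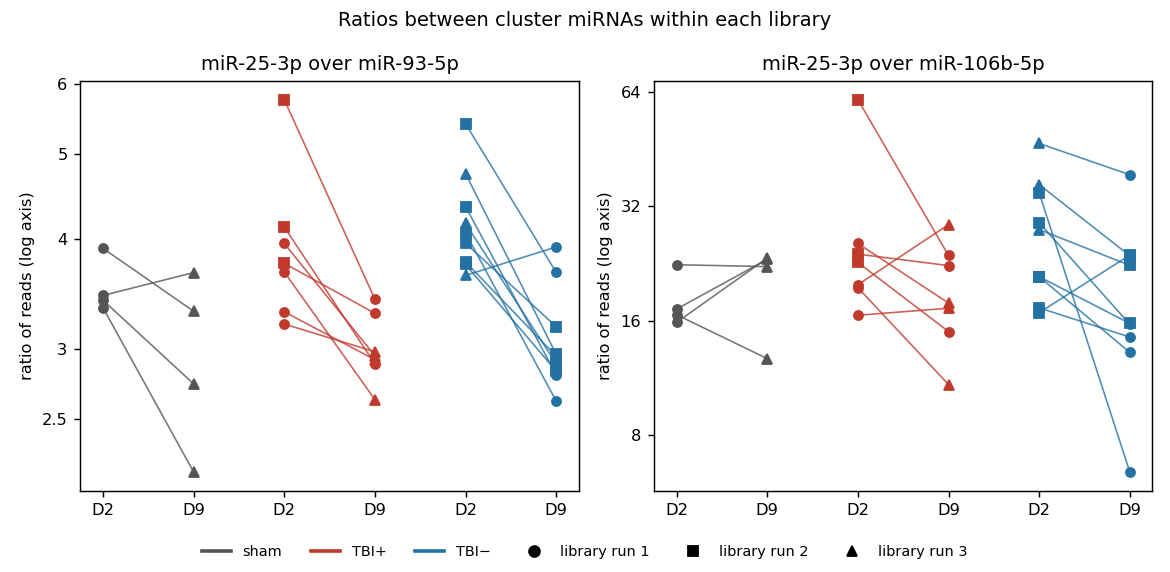
Ratio of reads of miR-25-3p to miR-93-5p and to miR-106b-5p in each library on a log axis, 1 line per rat, with the group as colour and the run of the library number as symbol. Nearly all lines fall in the left panel (18 of 20 rats), and 15 of 20 fall in the right panel.

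Between groups the ratios did not pass. Of 24 exact permutation tests over rats (2-sided, adjusted over all 24), 0 passed. By exact permutation p, the 2 lowest were those of miR-25-3p to its minor arm miR-25-5p in TBI against sham, with a difference in mean log2 ratio of 1.12 on D2 (p = 0.00619, adjusted p = 0.149) and of 1.65 on D9 (p = 0.0163, adjusted p = 0.196). Next was miR-106b-5p to miR-106b-3p on D2 with -0.51 (exact permutation p = 0.0479, adjusted p = 0.312). The share of all miRNA reads in the 6 members was 0.881% ± 0.247 in TBI and 0.789% ± 0.137 in sham rats on D2, and 1.10% ± 0.536 and 0.727% ± 0.435 on D9 (exact permutation p = 0.491 and 0.221, adjusted p = 0.786 for both).

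The major arms varied together among the TBI rats, most of all on D9. There log2 CPM of miR-93-5p and miR-25-3p had Pearson's r = 0.986 and Spearman's rho = 0.991 (n = 16, permutation p = 1e-05 for each, the smallest that 100000 resamples can give, adjusted p = 3e-05 and 4e-05). Without the 2 rats farthest from the median r was 0.983, and within the 8 TBI rats of run 1 it was 0.989. miR-106b-5p followed less closely, with r = 0.820 and rho = 0.759 against miR-93-5p (permutation p = 0.0003 and 0.00094, adjusted p = 0.00051 and 0.0019) and r = 0.774 and rho = 0.715 against miR-25-3p (permutation p = 0.00079 and 0.0027, adjusted p = 0.0012 and 0.0041). These r were 0.683 and 0.602 without the 2 farthest rats, and 0.938 and 0.888 within run 1. The adjusted p are over 12 relations.

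On D2 the major arms were less tightly coupled. miR-93-5p and miR-25-3p gave r = 0.906 and rho = 0.629 (permutation p = 2e-05 and 0.01, adjusted p = 4e-05 and 0.013), r = 0.775 without the 2 farthest rats, and r = 0.922 in the 9 TBI rats of run 2, which fell to 0.164 without the 2 farthest of these. miR-106b-5p and miR-93-5p gave r = 0.543 and rho = 0.582 (permutation p = 0.028 and 0.02, adjusted p = 0.03 and 0.024). Without the 2 farthest rats r was 0.578, but it was 0.112 when the same was done within run 2. For miR-106b-5p and miR-25-3p no relation was detected, with r = 0.292 and rho = 0.0765 (permutation p = 0.27 and 0.78, adjusted p = 0.27 and 0.78) and r = -0.222 without the 2 farthest rats.

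The red blood cell miRNA miR-451-5p, which matures without Dicer and is abundant in erythrocytes, moved with miR-106b-5p, miR-93-5p and miR-25-3p. Its relation to miR-106b-3p, miR-93-3p and miR-25-5p was not tested. On D9 its r was 0.886 with miR-106b-5p, 0.946 with miR-93-5p and 0.953 with miR-25-3p in the 16 TBI rats (rho = 0.844, 0.971 and 0.962). The permutation p were 2e-05, 1e-05 and 1e-05 for r and 0.0001, 1e-05 and 1e-05 for rho, with adjusted p of 3e-05 to 4e-05 for r and 4e-05 to 0.0003 for rho. Without the 2 farthest rats r was 0.823, 0.947 and 0.922, and within run 1 it was 0.910, 0.985 and 0.994. On D2 r was 0.731, 0.854 and 0.715 (rho = 0.732, 0.824 and 0.562, permutation p = 0.0013, 1e-05 and 0.0012 for r and 0.0019, 0.00019 and 0.027 for rho), with adjusted p of 3e-05 to 0.0015 for r and 0.00046 to 0.029 for rho.

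Those D2 relations were 0.649, 0.802 and 0.539 without the 2 farthest rats, and 0.789, 0.828 and 0.696 in run 2. In run 2 without its own 2 farthest rats they were 0.753, 0.252 and -0.397. Within run 2 the relations of both miR-93-5p and miR-25-3p to miR-451-5p thus rested on few rats. miR-451-5p itself was at 1771 to 3594 CPM in sham and 1400 to 5891 CPM in TBI rats on D2, and at 1653 to 4481 and 1415 to 12198 CPM on D9. With the log2 ratio of miR-451-5p to miR-23a-3p, a red blood cell index, as a covariate in TBI against sham, miR-25-3p went from 0.75 to 0.44 on D9 (adjusted p = 0.744, edgeR) and miR-93-5p from 0.73 to 0.50 (adjusted p = 0.665, edgeR). On D2 miR-93-5p went from 0.18 to -0.0045 and miR-25-3p from 0.36 to 0.26. miR-106b-5p moved from -0.17 to -0.32 on D2 (adjusted p = 0.307, edgeR) and from 0.68 to 0.52 on D9 (adjusted p = 0.600, edgeR). miR-25-5p on D9 was still called, at -2.12 (adjusted p = 0.0125, edgeR). No such covariate was fitted to the day comparisons.

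**Figure D5:**
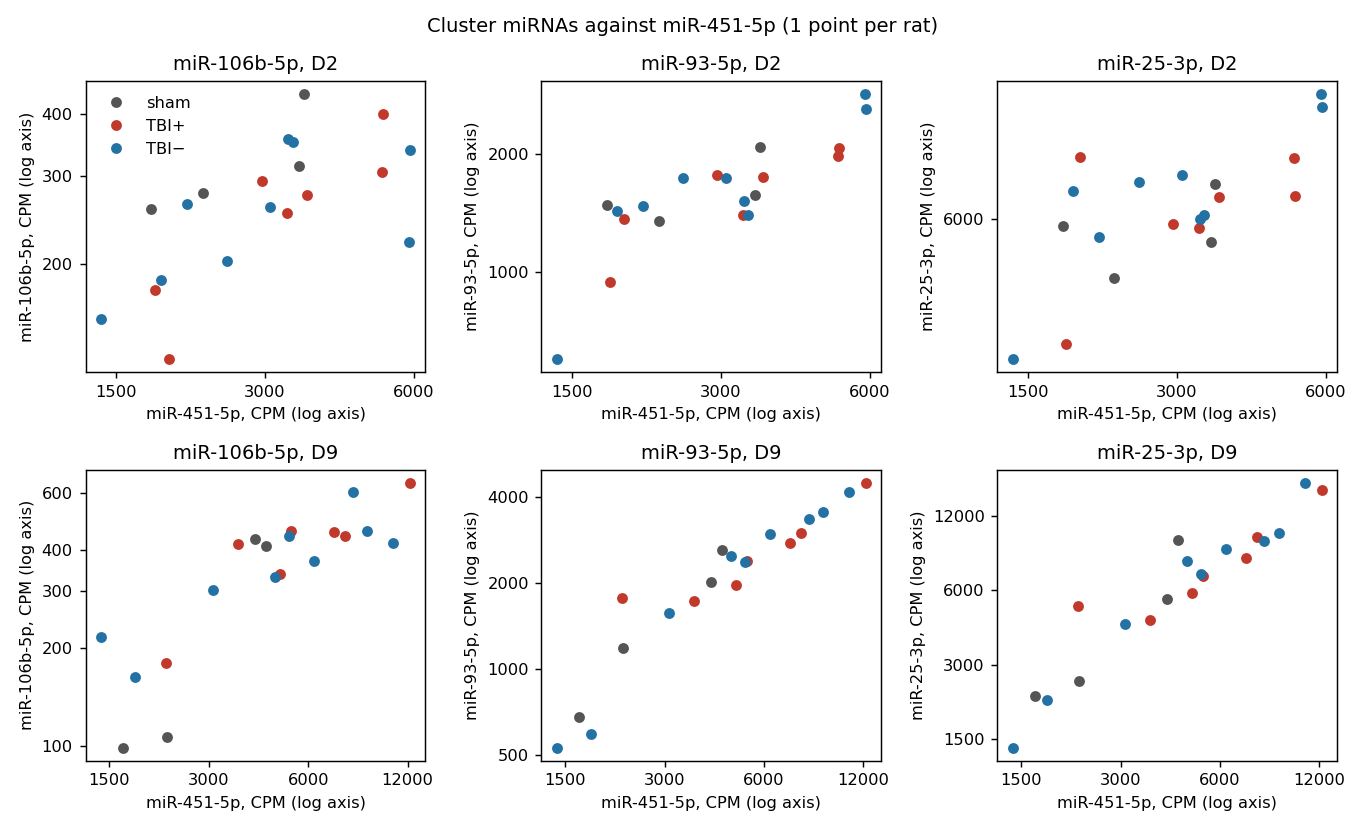
CPM of miR-106b-5p, miR-93-5p and miR-25-3p against CPM of miR-451-5p in each rat, on log axes, for D2 (top) and D9 (bottom), coloured by group. On D9 the TBI rats lie near a line (r = 0.886, 0.946 and 0.953), and on D2 they scatter more (r = 0.731, 0.854 and 0.715).

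The miRNAs most like each major arm were found by Spearman's rho of scaled log2 CPM over the 40 libraries, among 260 miRNAs with at least 10 reads in at least 20 libraries. The libraries include each rat on both days and share depth and composition, so the values are a description. Nearest to miR-93-5p were miR-16-5p (rho = 0.952), miR-15b-5p (0.926) and miR-451-5p (0.918). miR-106b-5p had miR-15b-5p (0.857), miR-451-5p (0.828) and miR-144-5p (0.789), the last from the same transcript as miR-451. miR-25-3p had miR-421-3p (0.874), miR-484 (0.837) and miR-15b-3p (0.825). Between members, rho was 0.847 for miR-93-5p and miR-25-3p, 0.778 for miR-106b-5p and miR-93-5p, and 0.376 for both arms of miR-106b.

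Other miRNAs of the seed families and paralogous clusters were compared by lists. Over all miRNAs edgeR called 4.82% as higher on D9 in TBI+ and 7.23% in TBI− rats. For TBI against sham it called 6.19% on D2 and 3.51% on D9, in either direction. The lists were not tested against these shares. Beside the members, the miR-17 seed family has miR-17-5p, miR-20a-5p and miR-20b-5p, of which 0 of 3 were called in TBI against sham on D2 or D9. From D2 to D9, 1 of 3 rose in TBI+ rats and 1 of 3 in TBI− rats, in both cases miR-20a-5p (log2FC 0.84, adjusted p = 0.0191, and 0.97, adjusted p = 0.00135, edgeR). The median log2FC of these 3 was 0.84 in TBI+ and 0.49 in TBI− rats, against 0 over all miRNAs.

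Of the 4 miRNAs sharing the seed of miR-25-3p, 0 were called in TBI against sham on either day. miR-363-3p rose from D2 to D9 in TBI+ (log2FC 1.02, adjusted p = 0.00178, edgeR) and in TBI− rats (log2FC 0.72, adjusted p = 0.00963, edgeR). miR-92b-3p fell in TBI− rats (log2FC -0.56, adjusted p = 0.0437, edgeR). miR-92a-3p, the abundant one, did not pass, with log2FC 0.23 and 0.29 (adjusted p = 0.416 and 0.239, edgeR). The family thus held miRNAs called in either direction.

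The miR-17-92 cluster, the larger paralogue, was described in the same way. Of its 13 miRNAs, 4 rose from D2 to D9 in TBI+ and 8 in TBI− rats, where 4.82% and 7.23% of all miRNAs rose. None fell, and the median log2FC was 0.84 and 0.97. Among these miR-18a-5p had a log2FC of 1.23 in TBI− rats (adjusted p = 0.000534, edgeR) and miR-92a-1-5p of 1.44 in TBI+ rats (adjusted p = 0.00292, edgeR). In TBI against sham on D2, 2 of 13 were lower, miR-18a-3p (log2FC -0.90, adjusted p = 0.0309) and miR-17-2-3p (log2FC -1.08, adjusted p = 0.0340, edgeR), and on D9 0 of 13 were called. Over all miRNAs 6.19% were called on D2 and 3.51% on D9, in either direction. The miR-106a-363 cluster had 4 of its 7 listed miRNAs with reads, of which 2 rose in TBI+ and 2 in TBI− rats and 0 were called in TBI against sham on either day. Its list also holds arms of a miR-19b and a miR-92a hairpin, so miR-19b-3p and miR-92a-3p cannot be assigned to miR-17-92 alone.

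Blood cell and tissue lists were read beside the day changes of the members. From D2 to D9 edgeR called 4.82% of all miRNAs as higher in TBI+ and 7.23% in TBI− rats. Calls in either direction were 16.0%, 20.1% and 5.68% in TBI+, TBI− and sham rats. Of 5 red blood cell miRNAs, 4 had reads, and 2 rose from D2 to D9 in TBI+ rats, miR-16-5p (log2FC 0.82, adjusted p = 0.0318, edgeR) and miR-451-5p (log2FC 0.98, adjusted p = 0.0427, edgeR). In TBI− rats 1 rose, miR-144-3p (log2FC 1.24, adjusted p = 0.00214, edgeR), and in sham rats 0 were called. Their summed level ran from 17437 to 39617 CPM on D2 and 27953 to 74325 CPM on D9 in TBI+ rats, from 10781 to 48279 and 17910 to 59035 CPM in TBI− rats, and from 22467 to 31913 and 13565 to 44768 CPM in sham rats. The median of this sum rose from 24512 to 41816 CPM in TBI+ rats and from 25135 to 41588 CPM in TBI− rats. In sham rats the median went from 24597 to 27396 CPM. Most of the sum was miR-16-5p (sham means 22543 CPM on D2 and 24302 CPM on D9). By single miRNA, the sham log2FC between the days was 0.95 for miR-144-3p (adjusted p = 0.268, edgeR). It was 0.15 for miR-451-5p, 0.08 for miR-16-5p and -0.07 for miR-144-5p. The part of the red blood cell miRNAs in the day changes of the members was not tested.

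Platelet miRNAs had 0 of 4 called between the days in TBI+ and 2 of 4 higher in TBI− rats, miR-126a-3p (log2FC 1.02, adjusted p = 0.00535) and miR-223-3p (log2FC 0.65, adjusted p = 0.0449, edgeR). In sham rats 1 of 4 was higher on D9, miR-24-3p (log2FC 4.00, adjusted p = 6.1e-05, edgeR), which was also the 1 of 4 lower in TBI than in sham rats on D9 (log2FC -4.15, adjusted p = 2.4e-06, edgeR). The sham values of miR-24-3p on D9 had a median of 946 CPM and 53601 CPM in sham rat 2 alone, against 349 to 1109 CPM in TBI rats. Both lymphocyte miRNAs were uncalled between the days and were lower in TBI than in sham rats on D2, miR-342-3p with a log2FC of -0.93 (adjusted p = 0.00803) and miR-150-5p of -0.85 (adjusted p = 0.0443, edgeR). Of 4 neuronal miRNAs with reads, 2 were called higher in TBI than in sham rats on D2, both arms of miR-124. miR-124-3p, which is enriched in neurons, had 0 reads in all 4 sham rats on D2 and 11.1 to 71.7 CPM in TBI rats (adjusted p = 1.7e-06, edgeR), and on D9 it was at 0 to 6.11 CPM in TBI rats. Between the days 2 of 4 neuronal miRNAs were lower in TBI+ and 2 of 4 in TBI− rats, and in sham rats 1 of 4, miR-128-3p (log2FC -1.25, adjusted p = 0.0293, edgeR). miR-128-3p, the most abundant of this list, was not called in TBI against sham on D2 (log2FC 0.29, adjusted p = 0.563, edgeR) or between the days in TBI− rats (log2FC 0.17, adjusted p = 0.684, edgeR). Of 2 detected liver miRNAs, 1 was higher on D9 in TBI+ and 1 in sham rats, and 0 were called in TBI against sham on either day. Over all miRNAs edgeR called 6.19% in TBI against sham on D2 and 3.51% on D9, in either direction.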

How the data were processed

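Small RNA of rat plasma was sequenced in 40 libraries of 20 rats. The authors discarded reads under 17 nt with Trimmomatic 0.36, aligned the rest to Rno6 with Bowtie2 and counted them on mature miRNAs with featureCounts. The deposited values are raw read counts per miRNA and library, not normalized, and no 2 libraries were identical (0 identical pairs).

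Counts were compared by edgeR 4.0.16 (R 4.3.3) with TMM scaling and quasi-likelihood tests, with Benjamini-Hochberg adjustment over every miRNA with a read (565 on D2, 541 on D9, 581 for both days) and a threshold of 0.05. TBI against sham used a 2-level fit, and the other comparisons kept TBI+, TBI− and sham apart. Day comparisons were fitted over the 40 libraries without the rat. The rat as a block is given where it changed a call, since the labels name the same rats on both days. Deviations of a rat's libraries from their group means correlated by -0.235 to 0.382 over 260 miRNAs. DESeq2 1.42.0 was an alternative, as were RLE, total count and miR-28-3p scaling, thinning, a red blood cell covariate, 1 run of library numbers and leaving out rats.

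Ratios took log2 with a pseudocount of 0.5 reads and were compared over rats by exact permutation. Correlations used 100000 resamples. In simulated data with 4-fold changes, 130 of 200 changed miRNAs were recovered on D2 (100 of 103 with a mean of at least 10 reads) and 107 of 200 on D9. Smaller changes, like those of most members, were not simulated, so how often they would be recovered is not known. Replicates are different rats, and limits from 3 reads cover counting error only.

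The members and lists were chosen with earlier results of these data known. The 6 members are named throughout. From each list at most 3 called miRNAs with the lowest adjusted p are named, and otherwise the 2 most abundant, and the 3 miRNAs nearest to each major arm by Spearman's rho. miR-92a-3p, both arms of miR-144 in sham rats and, beside TBI rats, miR-128-3p were named after their values were seen. Sequences are from RefSeq (GRCr8).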

Additional observations from a re-analysis of the deposited data

Results flagged for a closer look

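In 42 groups of 4, 7 or 9 rats, the gap of the highest and lowest rat to the next was divided by the range of the group and compared with Dixon's 95% limit, which is higher for smaller groups. This set 1 value apart, and chance alone sets about 1 in 20 groups apart. miR-106b-3p on D9 was at 620 CPM in TBI+ rat 7, while the next TBI+ rat was at 340.5 CPM, a gap of 0.703 of the range of the group. The D9 over D2 log2FC of miR-106b-3p in TBI+ rats was 0.56 without this rat (adjusted p = 0.169, edgeR). The sham D9 value of miR-25-5p in rat 2 (204 CPM) left a gap of 0.808, which is below the limit for 4 rats.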

How the results depend on the processing

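Of 1095 values recomputed, 966 kept their direction and side of the threshold, and for those below the cause was not tested. In TBI+ rats the count of members called between the days, 2, was 0 with RLE, total count scaling, thinning, the rat as a replicate block, 1 pair of runs, and both of the last together, 1 with miR-28-3p scaling, and 0 to 2 when 1 rat was left out. In TBI− rats the count of 1 was 0 after thinning and 0 to 1 without 1 rat, and held under the block. In sham rats DESeq2 called 2. On D9 the 1 call in TBI against sham was 0 after thinning, with the animal number as a block, or in 1 run, and 0 to 1 without 1 sham rat. TBI− against sham gave 0 after thinning or with that block and 0 to 1 without 1 sham rat, and TBI+ against sham gave 1 with DESeq2 and 0 to 1 without 1 sham rat. The leave-outs of TBI rats were chosen after the data had been seen.

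The animal number pairs no rats across groups (r of deviations -0.526 to 0.279, 8 of 30 over 0.1). With it as a block, miR-93-3p on D2 was 0.051 and on D9 miR-25-5p was -1.63, miR-25-3p 0.088 and miR-93-5p 0.092. Among values not called, the sign turned for miR-93-5p on D2 with a red blood cell covariate (-0.0045), miR-93-3p on D2 in 1 run (0.020), miR-106b-3p on D9 in 1 run (-0.15) and miR-93-3p on D9 without 1 sham rat (-0.36 to 0.011). For miR-25-3p between days in TBI− rats the values were -0.019 after thinning, -0.13 with the rat block and -0.0091 to 0.24 without 1 rat. miR-93-3p between days in TBI+ rats, 0.04, was -0.038 with DESeq2, -0.053 with RLE, -0.067 with total count scaling, -0.45 after thinning, -0.062 with the rat block, -0.42 in 1 pair of runs, -0.44 with both, and -0.18 to 0.21 without 1 rat. The difference in change of miR-106b-3p was -0.29 to 0.26 without 1 rat.

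For TBI against sham on D9, the log2 ratio of miR-25-3p to miR-93-5p was -0.026 in 1 run and -0.082 to 0.17 without 1 sham rat, that of miR-93-5p to miR-106b-5p -0.38 to 0.019, and that of miR-25-3p to miR-25-5p 0.83 to 2.41 (adjusted p = 0.0372 by exact permutation without sham rat 1). The D2 relation of miR-106b-5p and miR-93-5p was r = 0.391 with TMM scaling and 0.554 in 1 run. Sham libraries of D9 were the shallowest, which limits miR-25-5p and miR-93-3p.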
